A study of Mus musculus and Homo sapiens with 22 samples.

Results

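The pyruvate dehydrogenase kinases PDK1, PDK2, PDK3 and PDK4 were followed at the RNA level in human MDA-MB-231 cells and in mouse libraries labelled 4T1 after 24 h with the Aurora kinase inhibitors ENMD-2076 or TAK901. The members were the 4 human genes, taken by Ensembl identifier, and the 4 mouse genes, taken by symbol, which made 8 of the 81637 gene identifiers in the tables (4 of 42713 in MDA-MB-231 and 4 of 38924 in 4T1). PDK4 was included because it was high in treated MDA-MB-231 libraries, so its values in that line are given as a description and without a test. PDK1 (ENSG00000152256.9), PDK2 (ENSG00000005882.7), PDK3 (ENSG00000067992.8) and PDK4 (ENSG00000004799.7) all passed the filter on low counts. In the mouse tables Pdk1, Pdk2 and Pdk3 passed and Pdk4 did not, so 3 of the 4 mouse genes could be tested.

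MDA-MB-231 is a human triple-negative breast cancer line and 4T1 is a mouse mammary carcinoma line, each a model of a single tumour. Cells were plated for 24 h and then exposed for 24 h: MDA-MB-231 to DMSO (the solvent), ENMD-2076 at 2.5 or 5 µM, or TAK901 at 1 or 2 µM, and 4T1 to DMSO, TAK901 at 1 or 2 µM, or 1.25 or 2.5 µM of ENMD-2076. No genetic change or further agent is named in the labels, and each group held 2 libraries except 4T1 DMSO, whose 4 libraries were split as 1 and 2 (compared with ENMD-2076) and 3 and 4 (compared with TAK901). The labels do not say that the libraries of a group came from separate cultures, so p-values reflect the scatter among libraries alone, and that scatter could be purely technical. Comparisons of 2 doses with the same DMSO libraries share those controls.

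The libraries held 13.4 to 24.0 M (megareads) in genes in MDA-MB-231 and 14.4 to 30.9 M in 4T1, apart from 6.00 and 3.75 M for 4T1 with 2 µM TAK901. All 8 epithelial markers were detected in every 4T1 library. Reads of 4 Y-linked genes and of Hnf4a, a liver and gut transcription factor, were absent from DMSO 1 and 2 and from the ENMD-2076 libraries, and the Y-linked genes gave 1004 to 7021 reads in each library of DMSO 3 and 4 and TAK901. The libraries labelled 4T1 therefore form 2 sets whose levels differ, and in them the set and the compound cannot be told apart. Whether both sets came from the same cells was not tested. The name 4T1 below is that of the labels, for the TAK901 set as for the ENMD-2076 set. The tables of the 4T1 ENMD-2076 libraries carry 10 µM and no compound in their column headers, and a growth protocol gives 1 or 2 µM; the treatment labels (1.25 and 2.5 µM) were followed here. The pair at 2.5 µM also stood apart, with scaling factors of 0.766 and 0.784 against 0.989 to 1.12 in the other 4T1 libraries and a summed epithelial marker level of 3203 and 3098 CPM (reads per megaread of the scaled library) against 4510 to 4752 in the other 4 libraries of its set. In that pair the summed level of 5 muscle markers was 9.47 and 8.23 CPM against 0 to 0.193, and that of 4 endothelial markers 3.47 and 5.04 CPM against 0 to 0.649, with Ckm, Myh6 and Cdh5 at 0 reads. The sum of 6 fibroblast markers was 25.7 to 44.4 CPM in the ENMD-2076 set and 16.95 to 21.4 CPM in the TAK901 set, that of 4 adipocyte markers 0 to 0.695 and 1.19 to 4.59 CPM, and that of 5 liver and gut markers 0 to 2.65 and 283 to 341 CPM. The part of these genes in the results below was not tested.

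The pyruvate dehydrogenase complex sits in the mitochondrial matrix and turns pyruvate from glycolysis into acetyl-CoA for the tricarboxylic acid cycle. The kinases phosphorylate its E1 alpha subunit and switch the complex off, so that pyruvate is left for lactate and other uses, and the phosphatases Pdp1 and Pdp2 switch it on again. The isoforms share their fold and differ in activity and control: PDK1 and PDK3 are known hypoxia-responsive genes, PDK2 is the broadly expressed form that is sensitive to pyruvate and to dichloroacetate, and PDK4 is the form known to rise on fasting, in response to fatty acids, glucocorticoids and FOXO factors. In tumour cells the family is known for its part in aerobic glycolysis.

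Because the mouse genes Pdk2 and Pdk3 showed the largest differences between groups, the 250 bases before their transcription start are shown. They are from the RefSeq promoter table of GRCm38.p6. Every match to ACGTG, read on both strands, is in capitals. These letters are a form of the core of the hypoxia response element. Pdk2 lies at chr11:95041372-95041621 and Pdk3 at chrX:93832151-93832400, and both genes are on the minus strand.

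Pdk2: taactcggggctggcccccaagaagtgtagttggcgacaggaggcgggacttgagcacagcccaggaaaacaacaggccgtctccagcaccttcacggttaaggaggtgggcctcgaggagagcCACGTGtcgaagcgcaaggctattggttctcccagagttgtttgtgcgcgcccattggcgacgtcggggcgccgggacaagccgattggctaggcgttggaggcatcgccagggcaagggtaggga
Pdk3: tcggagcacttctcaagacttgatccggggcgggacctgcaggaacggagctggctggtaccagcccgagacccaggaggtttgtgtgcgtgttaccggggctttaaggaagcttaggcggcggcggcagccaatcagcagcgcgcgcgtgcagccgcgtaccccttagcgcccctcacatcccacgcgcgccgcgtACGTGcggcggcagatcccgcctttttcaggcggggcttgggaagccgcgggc

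The Pdk2 match begins 126 bases before the start and is a palindrome, so that both strands match and overlap. The Pdk3 match begins 53 bases before the start given in that table. The GENCODE gene described below reaches chrX:93832201, so its start lies inside the printed Pdk3 window. The table holds another Pdk2 window, not printed here, without a match. ACGTG occurred in 19.6% of the 32851 windows in the table that reach from 250 bases before to 50 after a start. The FOXO letters TGTTTAC (3.65% of windows), the glucocorticoid receptor letters ACANNNTGT (6.85%), the E2F letters TTTCGCGC (0.323%) and the PPAR direct repeat known as DR1 (0.0396%) were searched in the same way. They were not found in any window of the 4 Pdk genes, and ACGTG was not found in those of Pdk1 and Pdk4. Other forms of the hypoxia response core, such as GCGTG, were not searched. These matches are letters in a sequence and no binding was measured.

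The kinases are close relatives, so the stretch of 75 coding bases in which they are most alike is shown to let the reader judge how far reads could be assigned. Capitals mark the positions at which the 4 genes do not all have the same base.

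Pdk1: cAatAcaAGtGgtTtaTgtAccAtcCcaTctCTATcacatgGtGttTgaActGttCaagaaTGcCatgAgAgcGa
Pdk2: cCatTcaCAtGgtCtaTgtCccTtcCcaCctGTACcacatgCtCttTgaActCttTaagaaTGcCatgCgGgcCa
Pdk3: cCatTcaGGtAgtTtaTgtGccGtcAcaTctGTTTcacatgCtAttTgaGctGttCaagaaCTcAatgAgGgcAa
Pdk4: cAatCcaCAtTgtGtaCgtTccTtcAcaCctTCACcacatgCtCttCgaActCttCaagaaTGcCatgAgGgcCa

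In this stretch 48 of 75 positions were the same in all 4 genes. Over the whole coding sequence the pairs were 63.8% to 66.9% identical, and the longest run shared by the transcripts of any pair was 29 bases (Pdk3 and Pdk4). By the GENCODE mouse release 21 annotation (GRCm38) Pdk1 lies at chr2:71873224-71903858 on the plus strand, and Pdk2 at chr11:95026258-95041354, Pdk3 at chrX:93764607-93832201 and Pdk4 at chr6:5483351-5496309 on the minus strand. An antisense gene, Gm11513, overlaps Pdk2 and had 0 reads in every 4T1 library.

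In MDA-MB-231 PDK2 rose with 2 µM TAK901, and no change of PDK1 or PDK3 passed the test. PDK4, chosen for its rise in this line, is described first and without a test. In these bulk RNA samples, fewer cells of a type and less RNA per cell cannot be told apart. Values are CPM after TMM scaling, which corrects total counts for differences in composition. PDK4, the form known to rise on fasting, was at 0.528 and 1.58 CPM in DMSO, which rest on 7 and 25 reads. It was at 2.57 and 2.36 CPM with 2.5 µM ENMD-2076 and at 4.24 and 4.91 CPM with 5 µM. With TAK901 it was at 10.1 and 10.02 CPM at 1 µM and at 18.4 and 27.7 CPM at 2 µM. The values of all 4 treated groups lay above both DMSO libraries, and within each compound both libraries of the higher dose lay above both of the lower. Such separation was common in this line: both treated libraries lay above both DMSO libraries for 24.1% and 28.1% of all genes tested at the doses of ENMD-2076 and for 30% and 31.2% at those of TAK901. They lay below for 24.5% and 27.8%, and for 28.8% at each dose of TAK901. Both libraries of the higher dose lay above both of the lower for 23% of all genes with ENMD-2076 and 20.5% with TAK901. They lay below for 23.6% and 23.1%. The fitted log2 fold changes against DMSO were 1.18 and 2.07 for ENMD-2076 at 2.5 and 5 µM, and 3.20 and 4.40 for TAK901 at 1 and 2 µM. The DMSO libraries set the range of these values. Without DMSO library 1 the log2 fold change was 3.85 with 2 µM TAK901 and 0.65 with 2.5 µM ENMD-2076, and without DMSO library 2 it was 5.44 and 2.21.

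**Figure D1:**
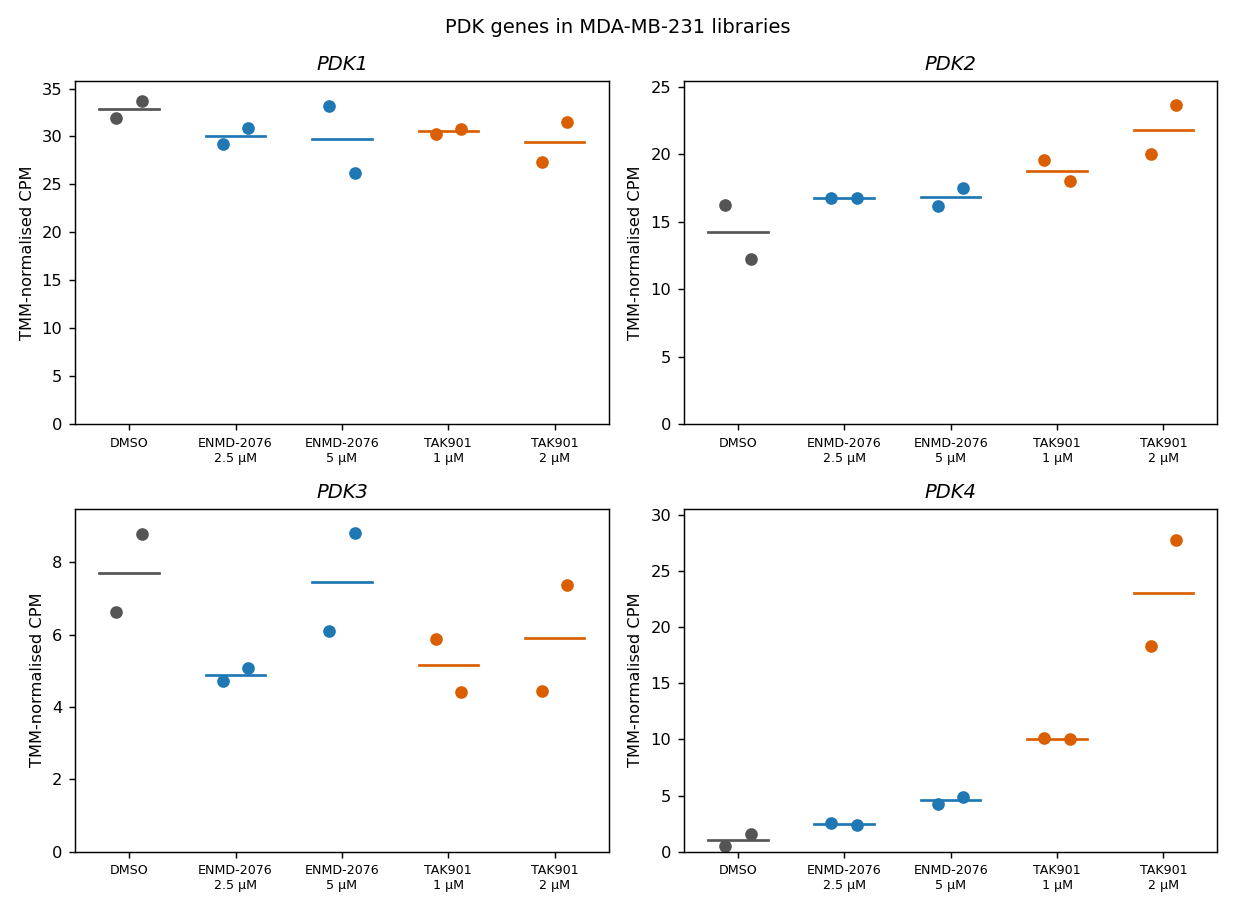
Level of each PDK gene in the 10 MDA-MB-231 libraries, as TMM-normalised CPM on a linear axis from 0; points are libraries, bars are means of 2, and each panel has its own scale. PDK4 goes from 0.528 and 1.58 CPM in DMSO to 18.4 and 27.7 CPM with 2 µM TAK901, whereas PDK1 stays between 26.2 and 33.7 CPM in all libraries.

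PDK2, the broadly expressed form, was at 16.2 and 12.2 CPM in DMSO. It was at 19.6 and 17.97 CPM with 1 µM TAK901 and at 20.0 and 23.6 CPM with 2 µM. All 4 TAK901 libraries were above both DMSO libraries. Over all genes, the pair at 2 µM TAK901 was less alike than the pairs of the other groups in this line. At 2 µM PDK2 rose by 0.62 on the log2 scale (SE 0.18, adjusted p = 0.0187, edgeR quasi-likelihood test), which was the only call among PDK1, PDK2 and PDK3 in this line, in a comparison where 31.2% of all genes tested were called. The call was lost when DMSO library 2 was left out (log2 fold change 0.44, adjusted p = 0.165), when TAK901 library 2 was left out (0.49, adjusted p = 0.0752), and when only these 2 groups were fitted (adjusted p = 0.0964, all edgeR). At 1 µM the log2 fold change was 0.41 (SE 0.18), with an adjusted p of 0.158 (edgeR) and a 95% interval of 0.01 to 0.80. With ENMD-2076 PDK2 was at 16.7 and 16.8 CPM at 2.5 µM and at 16.1 and 17.5 CPM at 5 µM, close to the higher DMSO library, and the log2 fold changes were 0.24 (95% interval -0.15 to 0.63) and 0.25 (-0.14 to 0.64).

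PDK1, a hypoxia-responsive form, was at 32.0 and 33.7 CPM in DMSO. It was at 29.2 and 30.9 CPM with 2.5 µM ENMD-2076, 33.2 and 26.2 CPM with 5 µM, 30.3 and 30.8 CPM with 1 µM TAK901, and 27.3 and 31.5 CPM with 2 µM. The pair at 5 µM ENMD-2076 overlapped DMSO and the other treated pairs lay below it, and no difference passed the test. Its log2 fold changes were -0.13, -0.15, -0.11 and -0.16 in that order, and the 95% interval at 2 µM TAK901 ran from -0.49 to 0.17.

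PDK3, the other hypoxia-responsive form, rested on 59 to 212 reads per library. It was at 6.63 and 8.79 CPM in DMSO. It was at 4.72 and 5.08 CPM with 2.5 µM ENMD-2076, 6.09 and 8.81 CPM with 5 µM, 5.89 and 4.42 CPM with 1 µM TAK901, and 4.46 and 7.37 CPM with 2 µM. The pairs at 2.5 µM ENMD-2076 and 1 µM TAK901 were below both DMSO libraries and the pairs at the higher doses overlapped them. The log2 fold change at 2.5 µM ENMD-2076 was -0.66 (SE 0.31, edgeR adjusted p = 0.418) with a 95% interval of -1.32 to 0.00, and at 1 µM TAK901 it was -0.58 (SE 0.31, edgeR adjusted p = 0.234).

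By edgeR 0 of the 3 genes PDK1, PDK2 and PDK3 passed at 2.5 µM ENMD-2076 (0.607% of all genes did) or at 5 µM (4.89%), with 0 at an unadjusted p under 0.05 in either case. With 1 µM TAK901 0 of 3 passed (13.9% of all genes did), with 1, PDK2, at an unadjusted p under 0.05. Between doses 0 of 3 passed for ENMD-2076 (0.0135% of all genes) and 0 of 3 for TAK901 (3.74%), with 0 at an unadjusted p under 0.05. DESeq2 gave 0 of 3 in each of these 5 comparisons. Over the 10 libraries the genes whose log2 level followed PDK4 most closely were ENSG00000119922.7 (Pearson r = 0.998) and ENSG00000108946.10 (r = 0.986), a description over libraries that share their groups.

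In the libraries labelled 4T1 the isoforms moved differently under ENMD-2076. Pdk2 rose 3.83-fold at 1.25 µM and was below DMSO at 2.5 µM, whereas Pdk3 rose at both doses, 1.43-fold and 2.86-fold. Under TAK901 Pdk2 rose at both doses, by 0.58 and 1.26 on the log2 scale, and neither Pdk1 nor Pdk3 passed the test. Pdk4 had 0 reads in every library of the ENMD-2076 set.

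Pdk2 was at 5.03 and 4.95 CPM in DMSO 1 and 2. It was at 19.8 and 18.6 CPM with 1.25 µM ENMD-2076 and at 2.84 and 3.63 CPM with 2.5 µM. The lower-dose pair stood far above DMSO and the higher-dose pair below it, with no overlap among the 3 groups. Over all genes tested, both treated libraries lay above both DMSO libraries for 33.1% at 1.25 µM and 37.6% at 2.5 µM, and below for 32.1% and 41.9%. Both libraries at 2.5 µM lay above both at 1.25 µM for 38.7% and below for 42%. At 1.25 µM Pdk2 rose by 1.94 on the log2 scale (SE 0.19, edgeR adjusted p = 3.3e-10), and the call held in all 21 alternatives, with log2 fold changes of 1.89 to 1.99. At 2.5 µM it fell by 0.65 on the log2 scale (SE 0.24, edgeR adjusted p = 0.0168), a value that rests on 45 and 41 reads. That call was lost in 7 of 20 alternatives, among them DESeq2 (log2 fold change -0.48, adjusted p = 0.133), the fit without ENMD-2076 2.5 µM library 1 (edgeR adjusted p = 0.187), the fit without DMSO library 2 (edgeR adjusted p = 0.05) and the replicate block (-0.56, edgeR adjusted p = 0.0784). Between the doses Pdk2 was lower at 2.5 than at 1.25 µM by a log2 difference of -2.58 (SE 0.21, edgeR adjusted p = 1.6e-12), in a comparison in which 73.3% of all genes were called.

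Pdk3 was at 28.01 and 26.2 CPM in DMSO 1 and 2. It was at 34.5 and 42.3 CPM with 1.25 µM ENMD-2076 and at 74.96 and 80.3 CPM with 2.5 µM. The 3 groups did not overlap and stood in the order of dose. Over all genes tested, both libraries at 2.5 µM lay above both at 1.25 µM for 38.7% and below for 42%. Against DMSO the shares were 33.1% above and 32.1% below at 1.25 µM, and 37.6% and 41.9% at 2.5 µM. The share of genes in the order of dose over the 3 groups was not computed. Pdk3 rose by 0.51 on the log2 scale at 1.25 µM (SE 0.11, edgeR adjusted p = 1.9e-04) and by 1.52 at 2.5 µM (SE 0.11, edgeR adjusted p = 7.4e-14). The rise at 2.5 µM held in all 20 alternatives, at 1.16 to 1.67, and the difference between the doses was 1.00 (SE 0.10, edgeR adjusted p = 3.3e-10).

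Pdk1 was at 35.4 and 32.1 CPM in DMSO 1 and 2. It was at 30.1 and 32.2 CPM with 1.25 µM ENMD-2076, which overlapped DMSO, and at 54.3 and 44.1 CPM with 2.5 µM, which lay above it. The log2 fold change was -0.11 at 1.25 µM (SE 0.10, edgeR adjusted p = 0.389, 95% interval -0.31 to 0.09). At 2.5 µM Pdk1 rose by 0.55 (SE 0.10, edgeR adjusted p = 8.3e-06), but with total-count scaling in place of TMM the value was 0.19 and the call was lost (edgeR adjusted p = 0.0713). That scaling moved the median of all genes at 2.5 µM from -0.02 to -0.37, so the direction of a small change there depends on it. In all, 2 of the 3 tested genes were called at 1.25 µM, where 45.9% of all genes were, and 3 of 3 at 2.5 µM, where 70.3% were. These counts stand against a background in which many genes were called.

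Pdk4 had 0 reads in each of the 6 libraries of this set. In DMSO 1 and 2 a count of 0 in 35.7 M reads allows a level of up to 0.0839 CPM (3 reads over the group), and with ENMD-2076 of up to 0.0662 CPM at 1.25 µM and 0.0854 CPM at 2.5 µM. These limits cover counting error only, and a rise of Pdk4 below them was not detectable at this depth. The rise of PDK4 described in MDA-MB-231 had no counterpart above these limits in 4T1 under ENMD-2076. The difference between the lines was not tested.

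**Figure D2:**
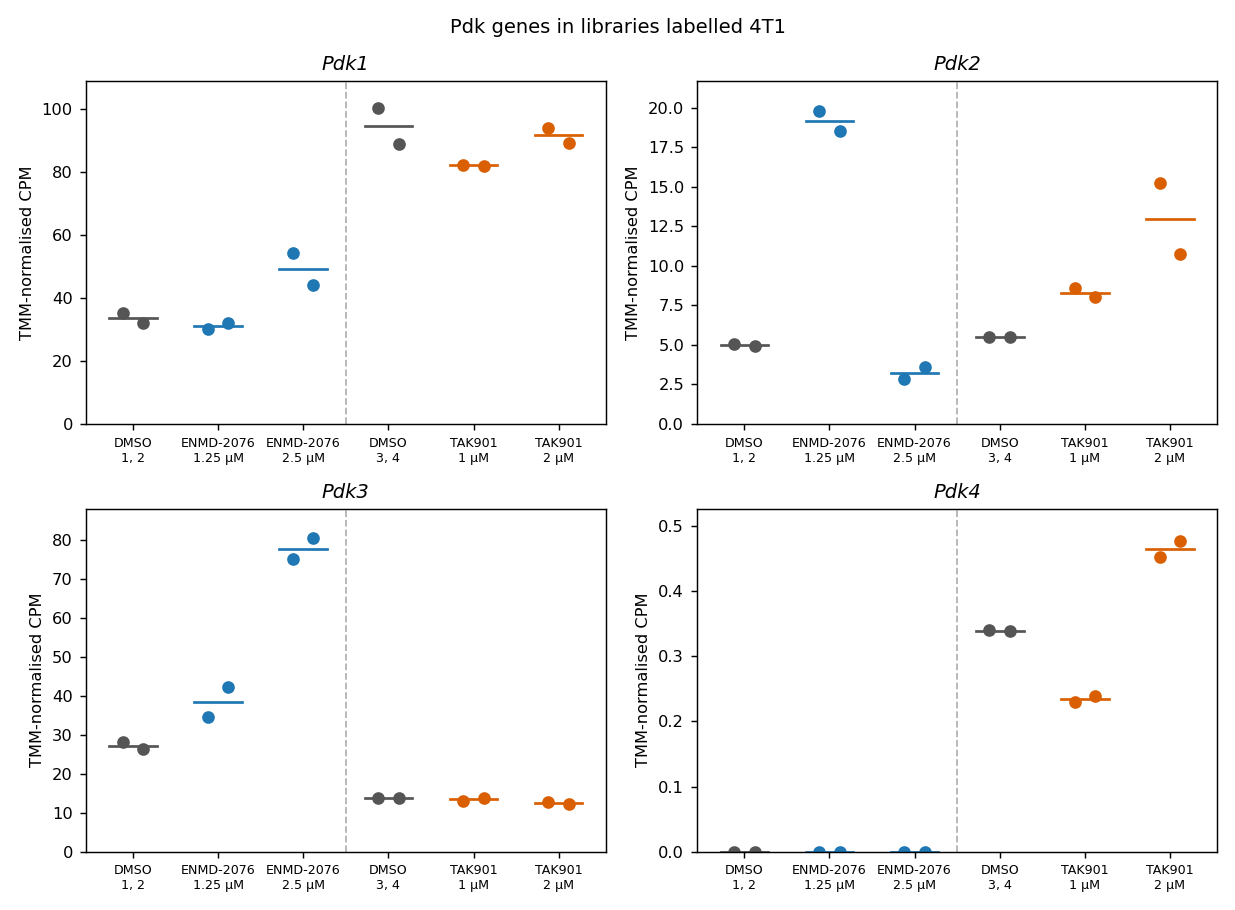
Level of each Pdk gene in the 12 libraries labelled 4T1, as TMM-normalised CPM on a linear axis from 0; points are libraries, bars are means of 2, and the dashed line separates the ENMD-2076 set (DMSO 1 and 2) from the TAK901 set (DMSO 3 and 4). Pdk2 is at 19.8 and 18.6 CPM with 1.25 µM ENMD-2076 and at 2.84 and 3.63 CPM with 2.5 µM, and Pdk4 is at 0 in the whole first set.

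In the TAK901 set Pdk2 was at 5.53 CPM in both DMSO 3 and DMSO 4. It was at 8.57 and 8.05 CPM with 1 µM TAK901 and at 15.2 and 10.7 CPM with 2 µM. The 3 groups did not overlap and stood in the order of dose. Both treated libraries lay above DMSO 3 and 4 for 29.5% of all genes at 1 µM and 25.2% at 2 µM, and below for 30% and 32.6%. Both libraries at 2 µM lay above both at 1 µM for 16.3% and below for 25.8%. At 2 µM Pdk2 rose by 1.26 on the log2 scale (SE 0.21, edgeR adjusted p = 7.3e-05), and the call held in all 19 alternatives, with adjusted p of 1.1e-06 to 0.039. It was the only call among the 3 genes tested, where 14.9% of all genes were called. At 1 µM Pdk2 rose by 0.58 (SE 0.19, edgeR adjusted p = 0.0439), again the only call of 3, where 9.14% of all genes were called. That call was lost with DESeq2 (adjusted p = 0.0863) and when any of the 4 libraries compared was left out. The log2 fold change was then 0.59 without DMSO 3, 0.58 without DMSO 4, 0.54 without TAK901 library 1 and 0.64 without TAK901 library 2, with edgeR adjusted p of 0.226 to 0.275. Between the doses the log2 difference was 0.68 (SE 0.21, edgeR adjusted p = 0.277, 95% interval 0.26 to 1.10), and 0 of the 3 genes passed while 0.0715% of all genes did, with 1, Pdk2, at an unadjusted p under 0.05. DESeq2 also called 0 of 3 between the doses, where its adjusted p was not given for these genes.

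Pdk1 was at 100.1 and 88.8 CPM in DMSO 3 and 4. It was at 82.3 and 81.8 CPM with 1 µM TAK901 and at 93.9 and 89.3 CPM with 2 µM. The 1 µM pair lay below DMSO and the 2 µM pair within its range, and the log2 fold changes were -0.20 (SE 0.08, edgeR adjusted p = 0.143) and -0.04 (SE 0.09, edgeR adjusted p = 0.856). Fitting only the 6 libraries of the set gave a call at 1 µM (-0.20, edgeR adjusted p = 0.0172).

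Pdk3 was at 13.8 and 13.7 CPM in DMSO 3 and 4. It was at 13.1 and 13.9 CPM with 1 µM TAK901 and at 12.8 and 12.2 CPM with 2 µM. Values at 1 µM overlapped DMSO and those at 2 µM were slightly below it, with log2 fold changes of -0.02 (95% interval -0.27 to 0.23) and -0.13 (-0.46 to 0.20).

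Pdk4 read numbers were 8 and 9 for DMSO 3 and 4. They were 4 and 7 at 1 µM TAK901 and 3 and 2 at 2 µM. As CPM of the pooled total counts these are 0.362 (95% Poisson interval 0.211 to 0.580), 0.255 (0.127 to 0.457) and 0.513 (0.167 to 1.20), intervals that overlap and cover counting error only. The level in DMSO 3 and 4 was 4.3 times the limit of 0.0839 CPM in DMSO 1 and 2, without the counting error of its 17 reads. The lower end of its interval, 0.211 CPM, was above the upper end of that in DMSO 1 and 2, 0.103 CPM.

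The DMSO libraries themselves differed in the family before any compound. Pdk1 was at 35.4 and 32.1 CPM in DMSO 1 and 2 and at 100.1 and 88.8 CPM in DMSO 3 and 4, a log2 difference of 1.48 (SE 0.09, edgeR adjusted p = 3.6e-15). Pdk3 differed in the other direction, by -0.98 (SE 0.12, edgeR adjusted p = 8.3e-09). Pdk2 was alike in both, with a difference of 0.15 (SE 0.20, edgeR adjusted p = 0.529, 95% interval -0.26 to 0.56). A total of 67.3% of all genes tested were called between these DMSO pairs, and the part of the sets' Hnf4a and Y-linked reads in the Pdk differences was not tested.

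**Figure D3:**
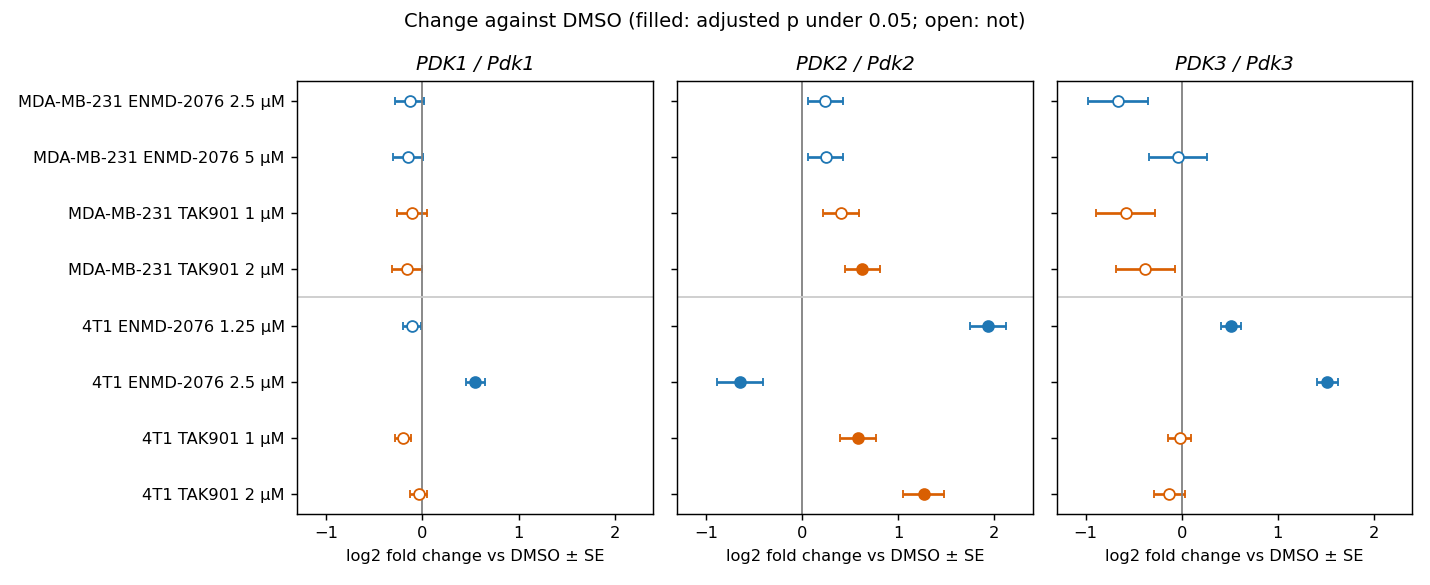
Log2 fold change against DMSO (x axis, bars are the SE from edgeR) of the 3 genes tested in both lines, in 8 comparisons (rows; 4T1 ENMD-2076 against DMSO 1 and 2, 4T1 TAK901 against DMSO 3 and 4); filled points had an adjusted p under 0.05. Pdk2 is at 1.94 and -0.65 at the 2 doses of ENMD-2076 in 4T1 and at 0.58 and 1.26 at those of TAK901.

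To compare levels between genes, they were divided by annotated exon length: 7779 bases for Pdk1, 3163 for Pdk2, 2561 for Pdk3 and 3511 for Pdk4. The lengths of the transcripts present were not measured, and the order of the genes depends on this step. Before it, Pdk1 was above Pdk3 in DMSO 1 and 2, with means of 33.7 and 27.1 CPM. As CPM per kb of annotated exon in the mouse libraries, Pdk3 led in DMSO 1 and 2 with 10.6 ± 0.49 (SD, n = 2), followed by Pdk1 with 4.33 ± 0.30 and Pdk2 with 1.58 ± 0.02. Pdk3 therefore held 64.2% of the family's summed level per length, Pdk1 26.3% and Pdk2 9.57%. With 1.25 µM ENMD-2076 the shares were 59.7% Pdk3, 16.0% Pdk1 and 24.3% Pdk2, so that Pdk2 moved from the third to the second place. With 2.5 µM they were 80.5% Pdk3, 16.8% Pdk1 and 2.71% Pdk2. The family's summed level was 17.1 and 15.9 CPM per kb in DMSO 1 and 2, 23.6 and 26.5 at 1.25 µM and 37.1 and 38.2 at 2.5 µM, without overlap.

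In DMSO 3 and 4 the order was another one: Pdk1 held 62.7%, Pdk3 27.7%, Pdk2 9.05% and Pdk4 0.50%. With 2 µM TAK901 the shares were 56.5% Pdk1, 23.4% Pdk3, 19.5% Pdk2 and 0.64% Pdk4. The summed level was 20.1 and 18.6 CPM per kb in DMSO, 18.5 and 18.6 at 1 µM and 22.0 and 19.8 at 2 µM, with overlap between DMSO and the higher dose. The shares are descriptions, and a share can move because another member did.

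**Figure D4:**
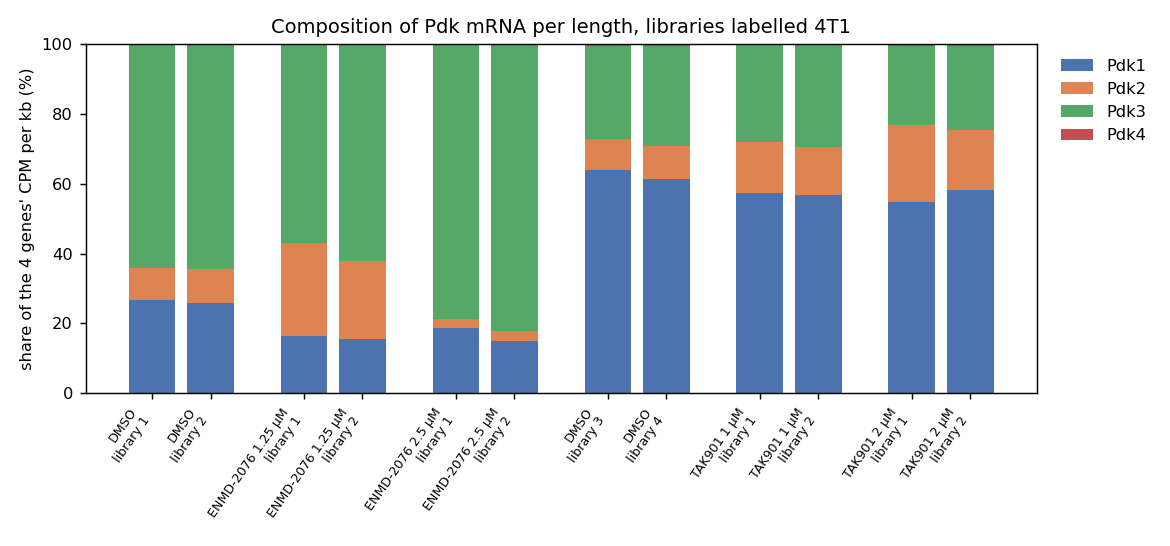
Share of each Pdk gene in the summed CPM per kb of the 4 genes (y axis, %), one bar for each library labelled 4T1, grouped by treatment. Pdk3 takes the largest share in DMSO 1 and 2 and all ENMD-2076 libraries, 80.5% on average at 2.5 µM, and Pdk1 takes the largest share in DMSO 3 and 4 and all TAK901 libraries.

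The targets and opponents of the kinases were read from lists of mouse genes. As background, 22.6% of all genes tested were higher and 23.2% lower with 1.25 µM ENMD-2076. At 2.5 µM the shares were 33.2% and 37.1%. TAK901 gave 3.97% and 5.17% at 1 µM and 5.63% and 9.28% at 2 µM. Of the 5 subunits of the pyruvate dehydrogenase complex, 1 rose and none fell with 1.25 µM ENMD-2076: Dld, the E3 subunit, by 0.17 on the log2 scale (SE 0.06, edgeR adjusted p = 0.0274), a call lost in 5 of 21 alternatives, among them the fits without DMSO library 1, without DMSO library 2, without ENMD-2076 1.25 µM library 2 and without TAK901 1 µM library 2 (adjusted p up to 0.436). With 2.5 µM, 4 rose and 1 fell. Pdhx, the E3-binding subunit, rose by 1.46 (SE 0.10, edgeR adjusted p = 7.0e-14), Dld by 0.80 and Pdhb, the E1 beta subunit, by 0.55. Pdha1, the E1 alpha subunit that the kinases phosphorylate, was the one that fell, by 0.35 on the log2 scale (SE 0.06, edgeR adjusted p = 1.1e-05). The list's median was 0.55, beside -0.02 over all genes tested, and with total-count scaling 3 rose and 1 fell.

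The phosphatases that oppose the kinases diverged. Pdp1, the calcium-dependent catalytic form, was at 19.1 and 17.2 CPM in DMSO 1 and 2. It was at 11.2 and 10.5 CPM with 1.25 µM ENMD-2076 and at 4.42 and 2.83 CPM with 2.5 µM. The 3 groups did not overlap and stood in falling order of dose, and Pdp1 fell by 0.75 (SE 0.15, edgeR adjusted p = 1.6e-04) and by 2.28 (SE 0.19, edgeR adjusted p = 3.5e-12). Over all genes tested, both treated libraries lay below both DMSO libraries for 32.1% and 41.9% at these doses, and above for 33.1% and 37.6%. Both libraries at 2.5 µM lay below both at 1.25 µM for 42% and above for 38.7%. Pdp2, the insulin-responsive catalytic form, had a log2 fold change of -0.21 at 1.25 µM (edgeR adjusted p = 0.107) and rose by 1.14 at 2.5 µM (SE 0.11, edgeR adjusted p = 4.3e-11). Pdpr, the regulatory subunit, rose by 0.39 at 1.25 µM and fell by 0.42 at 2.5 µM, the latter lost with DESeq2 (adjusted p = 0.0703). The list's median was -0.42 at 2.5 µM.

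With TAK901 0 of the 5 subunits passed at 1 µM by edgeR, with 1, Dlat, at an unadjusted p under 0.05, and DESeq2 also gave 0. At 2 µM Dlat, the E2 subunit, fell by 0.26 (SE 0.08, edgeR adjusted p = 0.0231), a call lost without any of the 4 libraries compared, with DESeq2 and with either other scaling (adjusted p up to 0.150). Of the 3 phosphatase genes 0 passed at either dose by edgeR or DESeq2, with 1, Pdpr, at an unadjusted p under 0.05 at 1 µM and 0 at 2 µM. Pdp1 was at 16.1 and 17.1 CPM with 1 µM and at 19.6 and 17.0 CPM with 2 µM, beside 18.5 and 17.5 CPM in DMSO 3 and 4.

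**Figure D5:**
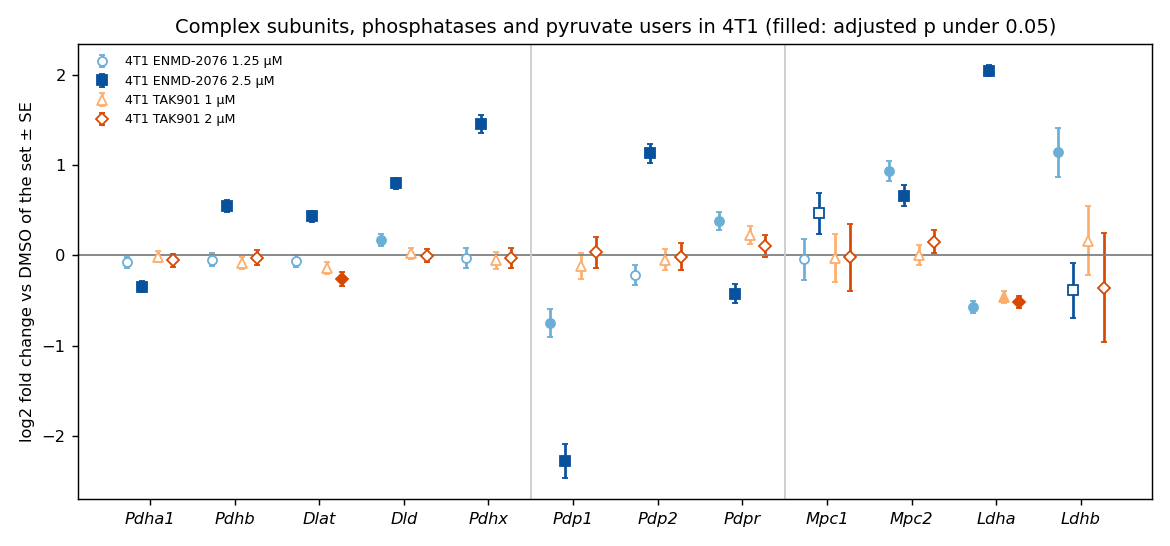
Log2 fold change against the DMSO libraries of the set (y axis, bars are the SE from edgeR) of complex subunits, phosphatases, and genes of pyruvate transport and lactate in 4 comparisons of 4T1; filled points had an adjusted p under 0.05. Pdp1 is at -2.28 and Ldha at 2.05 with 2.5 µM ENMD-2076, where the subunits other than Pdha1 are above 0.

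Pyruvate that the complex does not take is mostly reduced to lactate. Ldha, lactate dehydrogenase A, was at 769 and 786 CPM in DMSO 1 and 2. It was at 519.9 and 528 CPM with 1.25 µM ENMD-2076 and at 3335 and 3121 CPM with 2.5 µM. The lower-dose pair was below DMSO and the higher-dose pair far above it, with a fall of 0.57 (SE 0.06, edgeR adjusted p = 7.5e-09) and a rise of 2.05 (SE 0.07, edgeR adjusted p = 3.0e-22) on the log2 scale. DMSO 3 and 4 held Ldha at 1910 and 1691 CPM. TAK901 libraries had 1322 and 1291 CPM for 1 µM and 1334 and 1183 CPM for 2 µM, all below DMSO. Ldha fell by 0.46 with TAK901 at 1 µM and by 0.52 at 2 µM (SE 0.06 each, edgeR adjusted p = 1.1e-05 and 8.7e-07). Mpc1, a subunit of the mitochondrial pyruvate carrier, did not pass in any of these 4 comparisons, with log2 fold changes of -0.04, 0.47, -0.03 and -0.02. The 0.47 at 2.5 µM ENMD-2076 (edgeR adjusted p = 0.0652) passed in 9 of 20 alternatives.

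Of 11 genes of pyruvate transport and other fates, 3 rose and 6 fell with 1.25 µM ENMD-2076, among them Gpt2, the mitochondrial alanine aminotransferase (-2.97), Ldhb (1.15) and the carrier subunit Mpc2 (0.94). With 2.5 µM 6 rose and 1 fell, and the malic enzyme Me2 was at 1.60 and Gpt2 at -1.54 (5 rose and 2 fell with total-count scaling). Of 15 genes of glucose uptake and glycolysis, 1 rose and 11 fell with 1.25 µM, with a median of -0.42. The riser was Pfkfb3, which makes the activator of phosphofructokinase (2.14), and the glucose transporter Slc2a1 fell by 1.69. With 2.5 µM 11 rose and 4 fell, with a median of 0.63, led by the mutase Pgam1 (2.99). With TAK901 0 rose and 7 fell at 1 µM, and 0 rose and 4 fell at 2 µM, by small amounts such as -0.27 and -0.25 for the hexokinase Hk2. The Hk2 calls were lost without DMSO 3 at both doses, without TAK901 1 µM library 2 at 1 µM (edgeR adjusted p up to 0.172) and without TAK901 2 µM library 1 at 2 µM (up to 0.142). Over the alternatives 0 to 9 genes of the list fell at 1 µM and 1 to 6 at 2 µM.

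The 16 genes of the tricarboxylic acid cycle split at 1.25 µM ENMD-2076, with 7 higher, 3 lower and a median of -0.00. At 2.5 µM 16 of 16 rose, with a median of 0.79, among them Sdhd (1.92), Mdh2 (1.70) and Idh3a (1.28). With total-count scaling 14 of 16 passed, all higher, with a median of 0.43 beside -0.37 over all genes. With TAK901 1 of 16 passed at each dose and was lower, Suclg1 at 1 µM (-0.24) and Idh3a at 2 µM (-0.31). The Suclg1 call was lost in 6 of 20 alternatives (adjusted p up to 0.625), with DESeq2, with total-count scaling and without DMSO 2, DMSO 3 or either TAK901 1 µM library. The Idh3a call was lost without DMSO 4 and without TAK901 2 µM library 2 (edgeR adjusted p up to 0.0994).

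Fatty acids are the alternative fuel that PDK4 is known to favour. Of 14 tested genes of fatty acid oxidation and PPAR targets (of 18 listed), 12 rose and none fell with 1.25 µM ENMD-2076, with a median of 0.62 beside 0.00 over all genes. Cpt1a, which admits long-chain fatty acids to mitochondria, was at 90.1 and 81.8 CPM in DMSO 1 and 2 and at 230.5 and 236 CPM with 1.25 µM, and rose by 1.44 on the log2 scale (SE 0.07, edgeR adjusted p = 4.0e-18). At 2.5 µM it was at 32.3 and 36.9 CPM and fell by 1.32 (SE 0.08, edgeR adjusted p = 7.4e-16), and the list split into 6 higher and 6 lower (4 and 8 with total-count scaling). Angptl4, a secreted lipase inhibitor and PPAR target, gave 0 and 1 reads in DMSO 1 and 2, 103 and 221 with 1.25 µM and 27 and 12 with 2.5 µM. With TAK901 4 rose and 1 fell at 1 µM, and 5 rose and 1 fell at 2 µM. Angptl4 was the one that fell, from 52.3 and 49.5 CPM in DMSO 3 and 4 to 34.5 and 37.1 CPM at 1 µM and 32.4 and 28.4 CPM at 2 µM. Its call at 1 µM was lost without DMSO 3, TAK901 library 1 or TAK901 library 2 (edgeR adjusted p up to 0.138). The number of the list's genes that rose ranged over the alternatives from 0 to 6 at each dose of TAK901.

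FOXO and hypoxia targets are the groups whose known regulators act on PDK genes. Of 15 tested FOXO targets (of 17 listed), 9 rose and 2 fell with 1.25 µM ENMD-2076 (median 0.71), 3 rose and 8 fell with 2.5 µM (median -0.35), 6 rose and none fell with 1 µM TAK901 (median 0.18), and 7 rose and none fell with 2 µM (median 0.28). Over the alternatives 2 to 7 rose at 1 µM TAK901 and 3 to 10 at 2 µM. Fbxo32, a muscle atrophy ubiquitin ligase, rose by 1.23 at 1.25 µM ENMD-2076, fell by 2.23 at 2.5 µM, and rose by 0.61 and 0.78 at the doses of TAK901. Txnip, an inhibitor of glucose uptake, rose by 0.79 and 1.04 with ENMD-2076 and by 0.32 with 2 µM TAK901, the last lost without TAK901 2 µM library 1 (0.19, edgeR adjusted p = 0.293).

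Of 13 tested hypoxia targets (of 14 listed), 1 rose and 9 fell with 1.25 µM ENMD-2076 (median -0.38). The one left out, Ca9, was not found under that symbol. Egln3, an oxygen-sensing hydroxylase, fell by 2.24, and Adm, a vasodilator peptide, rose by 1.95. With 2.5 µM 7 rose and 3 fell, but with total-count scaling 4 rose and 6 fell, so no direction is given for that list. With TAK901 0 rose and 3 fell at 1 µM, and 2 rose and 0 fell at 2 µM.

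Among 16 tested transcription factors known to act on PDK genes (of 17 listed), 5 rose and 4 fell with 1.25 µM ENMD-2076, and 6 rose and 7 fell with 2.5 µM. Myc fell by 0.86 and 2.69. Pparg and Epas1 were at 0 CPM in every library of the ENMD-2076 set and passed the filter through the TAK901 set. Neither could be called under ENMD-2076. The filter was set over both sets, so the shares of all genes under ENMD-2076 also count such genes. Hif1a, the inducible hypoxia factor, had a log2 fold change of -0.00 at 1.25 µM and rose by 0.41 at 2.5 µM, the latter lost with total-count scaling (0.05, edgeR adjusted p = 0.425). With TAK901 Hif1a rose by 0.25 at each dose, calls lost without DMSO 4, without TAK901 1 µM library 2 and without TAK901 2 µM library 1 (edgeR adjusted p up to 0.165). Ppargc1a, a coactivator of mitochondrial genes, rose by 0.87 and 0.77 with TAK901, and by 0.81 with 1.25 µM ENMD-2076, the last lost without ENMD-2076 1.25 µM library 2 (edgeR adjusted p = 0.0537). Foxo3 rose by 0.35 and 0.71 with ENMD-2076 and by 0.42 with 2 µM TAK901, the last lost without TAK901 2 µM library 2 (edgeR adjusted p = 0.0728). Foxo1 rose by 0.49 at 1.25 µM ENMD-2076. Foxo1 fell by 0.38 at 2.5 µM, a call lost in 6 of 20 alternatives. Ppara did not pass the filter, with 0 to 6 reads in each library.

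Bckdk, the kinase of the branched-chain ketoacid dehydrogenase and the nearest relative of the family, had a log2 fold change of 0.02 at 1.25 µM ENMD-2076 and rose by 0.99 at 2.5 µM (SE 0.09, edgeR adjusted p = 1.6e-11). With TAK901 its values were 0.04 and -0.01. Of the 5 genes of that complex, its kinase and its phosphatase, 2 rose and 2 fell at 2.5 µM, with Bckdha at -1.29 and Bckdhb at 1.27, and 1, Bckdha, rose by 0.45 at 2 µM TAK901, a call lost without DMSO 4 and without TAK901 2 µM library 1 (edgeR adjusted p up to 0.0674). Ppm1k, the phosphatase of that complex, fell by 0.81 at 1.25 µM.

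Within the 6 libraries of the ENMD-2076 set, the genes whose log2 level followed Pdk2 most closely were Depdc7, Man2a2, Foxj2, Sipa1l1 and Msrb3 (Pearson r of 0.999 to 1.00). Those that followed Pdk3 were Sucla2, a subunit of succinyl-CoA synthetase in the tricarboxylic acid cycle (r = 1.00), Scoc, B3galt6, Selenot-ps and Rprd2 (r of at least 0.996). In the TAK901 set those closest to Pdk2 were Calml4, Mocos, Tmbim4, Rab32 and Ifngr1 (r of 0.990 to 0.994). These values describe 3 groups of 2 libraries each and carry no test.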

How the data were processed

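RNA of 22 libraries (10 MDA-MB-231, 12 labelled 4T1) was sequenced, and the authors deposited raw read counts per gene, 1 table per library. Per the submitters' processing notes, HTSeq, TopHat, Bowtie, DESeq2 and FastQC 0.11.3 were used, with builds mm10 and hg38. Their order, other versions, gene annotation and strand setting are not stated in the labels. Summary lines of the second 4T1 set (40.7% to 57.3% of its records, such as unaligned reads) were left out. Of the 4T1 identifiers 37607 of 38924 matched GENCODE mouse release 21. Other human genes were not named here, and human gene lists and protein sequences were not analysed here.

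Counts were tested with edgeR 4.0.16 (R 4.3.3): filterByExpr, TMM, 1 quasi-likelihood model per line holding every group, two-sided, Benjamini-Hochberg over 14826 genes in MDA-MB-231 and 15375 in 4T1, threshold 0.05. SE was taken as the absolute log2 fold change divided by sqrt(F). Coding sequences were aligned with mafft 7.526. The fit was tested on simulated data with 200 changed genes. Every pair of libraries of a line differed beyond sampling noise (chi-square over its degrees of freedom 2.28 or more). Within groups of MDA-MB-231 this value was 54.2 for the pair with 2 µM TAK901 and 4.43 to 8.12 for the other groups. Against the 1 µM TAK901 libraries, 2 µM TAK901 library 2 gave 17.5 and 16.3. Replicate numbers did not pair libraries (r from -0.0206 to 0.0922).

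The members and lists were chosen with earlier results of these data known. Named were every PDK gene, 11 fixed pathway genes, up to 3 genes with the largest change per list and comparison, and 5 genes most alike in pattern for members whose group means span at least 2-fold. Alternatives were DESeq2 1.42.0, other scalings, no filter, smaller fits, each library left out and the replicate block. One of the marker lists is not reported here.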

Additional observations from a re-analysis of the deposited data

Results flagged for a closer look

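Both lines were given 2.5 µM ENMD-2076 and TAK901 at 1 and 2 µM. Under TAK901 the mean levels of PDK2 and Pdk2 were above DMSO in both lines at both doses. PDK2 at 1 µM did not pass the test. The calls of PDK2 at 2 µM and of Pdk2 at 1 µM were lost in some alternatives. Both TAK901 libraries lay above both DMSO libraries for 30% and 31.2% of all genes in MDA-MB-231, and for 29.5% and 25.2% in 4T1. The share above in both lines was not computed. Of the shared doses, only 2.5 µM ENMD-2076 put genes tested in both lines on opposite sides of both DMSO libraries, in every treated library. These were Pdk1, Pdk2 and Pdk3. Over all genes at that dose, both treated libraries lay above both DMSO libraries for 24.1% in MDA-MB-231 and 37.6% in 4T1. They lay below for 24.5% and 41.9%, and the share on opposite sides in the 2 lines was not computed. The difference of the log2 fold changes, 4T1 minus MDA-MB-231, was 0.68 for Pdk1 (-0.13 in MDA-MB-231 and 0.55 in 4T1), -0.89 for Pdk2 (0.24 and -0.65) and 2.18 for Pdk3 (-0.66 and 1.52). The difference itself was not tested, and none of the 3 values in MDA-MB-231 passed the test. The 4T1 pair at that dose is the one with the scaling factors of 0.766 and 0.784, and its Gm26917 level was 2185 and 2004 CPM of the total count, against 29.9 to 50.6 in the other libraries of its set. The part of these features in the 3 differences was not tested.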

How the results depend on the processing

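The number of PDK genes called stayed within 1.5 times in 228 recomputations and moved in 11, and no call changed direction. For TAK901 2 µM in MDA-MB-231 it went from 1 to 0 when only the 2 groups were fitted, and leaving out 1 library gave 0 to 1. For TAK901 1 µM in 4T1 it went from 1 to 0 with DESeq2, to 2 when only the 2 groups and to 2 when only the 6 libraries of the set were fitted, and leaving out 1 library gave 0 to 1. Between the TAK901 doses in 4T1 it went from 0 to 1 with only the 2 groups (Pdk2, log2 difference 0.72, edgeR adjusted p = 0.0395). The cause was not tested. With the replicate block 2 genes were called for ENMD-2076 2.5 µM in 4T1 in place of 3 (Pdk2 was lost) and 1 for TAK901 2 µM in MDA-MB-231; the other calls were as without it, and none was possible for TAK901 against DMSO 3 and 4, which share no replicate numbers. Over all genes, calls ranged over the alternatives from 11 to 966 (90 as reported) for ENMD-2076 2.5 µM in MDA-MB-231, 67 to 2503 (725) for 5 µM, 739 to 3995 (2065) for TAK901 1 µM and 2340 to 5594 (4623) for 2 µM, 1 to 707 (2) and 0 to 3581 (555) between the doses, and in 4T1 from 376 to 3719 (1406) for TAK901 1 µM, 1245 to 3377 (2292) for 2 µM and 1 to 102 (11) between them, so the background shares move with the fit. The 4 comparisons left stayed within 1.5 times. Recomputed tests of the pathway genes stayed on their side of the threshold in 2280 cases, and 115 calls were lost and 11 gained. Counts of called genes in the pathway lists moved by over 1.5 times in 8 of 210 recomputations for ENMD-2076 1.25 µM, 0 of 200 for 2.5 µM, 41 of 200 for TAK901 1 µM and 31 of 190 for 2 µM. The fits without both 4T1 libraries of 2.5 µM ENMD-2076 or of 2 µM TAK901 were chosen after seeing the data. Depth limits Pdk4 in 4T1, and Pdk2 at 2.5 µM ENMD-2076 (45 and 41 reads). It also limits Pdk2 with 2 µM TAK901 in 4T1, at 15.2 and 10.7 CPM in libraries of 6.00 and 3.75 M reads.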
